A study of Homo sapiens with 6 samples.

Results

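The p53 family members TP63 and TP73 and 4 regulators of p53 family proteins, NOC2L, MDM4, TP53BP1 and USP7, were examined in U2OS cells exposed to topoisomerase II poisons. The members were taken by name and matched to the Ensembl identifiers of the count data, and all 6 were found among the 67140 genes listed for the etoposide libraries. TP73 and NOC2L were also among the 220 genes listed for all 6 libraries. The counts of the other 4 members in control and adriamycin-treated cells were not analysed here, so their levels are given for etoposide-treated cells only.

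RNA-Seq was performed on U2OS, a human osteosarcoma line of genotype WT (wild type), in 3 groups of 2 libraries. Control cells received no treatment, and treated cells were given adriamycin (1.5 μg/ml) or etoposide (100 μM), each over 4 h. The study calls the replicates of its expression values technical, a word it explains elsewhere as cells cultured and processed independently, and the sample labels say nothing of separate cultures. The p-values therefore measure the spread between these libraries, which may be technical. The etoposide libraries held 21450766 and 14244235 counts. The 220 shared genes, which lie in the first 4594016 bases of chromosome 1, summed to between 59357 and 92794 counts per library, and these sums are not library depths. Of the shared genes, 94 passed the filter on low counts and were tested. The labels call the cells epithelial and the tissue bone. In the etoposide libraries, 7 of 10 mesenchymal and osteoblast markers and 7 of 10 epithelial markers had at least 10 counts in both libraries, with summed levels of 2865 and 2934 TPM (a level per transcript, corrected for gene length and library depth) for the former and 774 and 719 TPM for the latter. COL1A1 (1368 TPM), SPARC (849 TPM) and VIM (551 TPM) led the former list, in which TWIST1 had 0 counts in both libraries. COL1A2, BGLAP and RUNX2 of that list stood at 0.060, 0.92 and 2.03 TPM. KRT8 (451 TPM) and KRT18 (252 TPM) led the latter, in which CLDN4 and EPCAM stood at 19.8 and 18.2 TPM and CDH1, ESRP1 and KRT19 at 0.80, 0.042 and 0.034 TPM. In each list 4 of 10 genes were above 16.5 TPM. This is the median of the 13715 protein-coding genes, of 19892 listed, with at least 10 counts in both libraries. Both lists thus held abundant and nearly undetected members.

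p53, p63 and p73 are related transcription factors that bind the same kind of DNA element. After DNA breaks, p53 is stabilized and switches on genes of cell cycle arrest and apoptosis, p63 is best known for its role in stratified epithelia, and p73 in neural development, multiciliated cells and the response to genotoxic drugs. TP63 and TP73 each use an upstream promoter for the TA forms, which carry the transactivation domain, and an internal promoter for the ΔN forms, which lack it and can oppose the TA forms. The regulators act at different steps. MDM4 binds p53 and blocks its transactivation domain, USP7 removes ubiquitin from p53 and from its ligases, NOC2L is an inhibitor of histone acetyltransferases that is recruited by p53 family proteins and also works in ribosome assembly, and TP53BP1 is a chromatin reader that gathers at double-strand breaks.

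TP73 spans bases 3652516 to 3736201 of chromosome 1, plus strand (GRCh38, GENCODE release 44). Of its 11 protein-coding transcripts, 5 begin at the upstream start and 6 at internal starts between bases 3682366 and 3698058, and the gene counts sum over all of them, so TA and ΔN forms could not be told apart. TP63 has the same layout, with 5 protein-coding transcripts from the upstream start and 7 from internal starts. NOC2L lies on the minus strand of the same chromosome arm, at bases 944203 to 959309. The sequences before the upstream and one internal start of TP73 are shown because the gene's annotated transcripts begin at both kinds of start, and that of NOC2L because its counts were higher with adriamycin. Which TP73 starts were used in these cells was not measured. Each holds the 250 bases before a RefSeq start (GRCh38.p14), at chr1:3652266-3652515 and chr1:3690422-3690671 on the plus strand for TP73 and at chr1:959257-959506 on the minus strand for NOC2L. Capitals mark an E2F-type motif in the first, a pair of p53-type motifs in the second and GC boxes in the third.
TP73 upstream start: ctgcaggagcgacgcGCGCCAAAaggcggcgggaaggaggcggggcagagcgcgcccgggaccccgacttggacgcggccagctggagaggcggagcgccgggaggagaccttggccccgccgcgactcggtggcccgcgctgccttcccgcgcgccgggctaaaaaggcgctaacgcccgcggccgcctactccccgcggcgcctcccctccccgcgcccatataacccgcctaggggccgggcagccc
TP73 internal start: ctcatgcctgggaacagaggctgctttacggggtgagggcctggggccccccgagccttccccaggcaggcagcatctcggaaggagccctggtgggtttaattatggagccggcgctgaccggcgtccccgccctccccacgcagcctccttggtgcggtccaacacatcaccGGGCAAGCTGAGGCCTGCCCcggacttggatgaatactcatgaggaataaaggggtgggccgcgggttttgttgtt
NOC2L start: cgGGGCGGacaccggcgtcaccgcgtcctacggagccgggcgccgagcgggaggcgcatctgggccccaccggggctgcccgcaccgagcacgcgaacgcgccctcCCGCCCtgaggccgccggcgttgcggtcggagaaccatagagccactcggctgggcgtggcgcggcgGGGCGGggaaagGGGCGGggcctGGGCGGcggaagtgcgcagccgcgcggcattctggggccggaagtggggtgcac

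The motifs were searched on both strands of the same 250 bases of all 35116 RefSeq promoter windows, and they were chosen after the TP73 sequences had been seen. The E2F-type motif was any of TTTGGCGC, TTTGCCGC, TTTCGCGC and TTTCCCGC, of the kind bound by the cell cycle factors of the E2F family, and 2.788% of windows held it. The pair of p53-type motifs was a run of 20 bases made of 2 adjacent copies of the p53 consensus with the central C and G of each copy kept and at most 2 mismatches, and 0.2421% of windows held it. The GC box was GGGCGG, which 42.64% of windows held, including the internal TP73 window with 1 copy and the NOC2L window with 5. The upstream TP73 window held 1 E2F-type motif, 235 bases before the start, and neither of the other motifs. RefSeq lists 3 TP73 starts. The window before the remaining internal start, at base 3698046, held none of these motifs, and its sequence is not shown. A match is a description of the sequence only, and binding was not measured.

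TP73 was lower in adriamycin-treated cells than in control cells, and NOC2L was higher by a smaller amount. The control libraries held 544 and 396 counts of TP73, the etoposide libraries 463 and 340, and the adriamycin libraries 161 and 127. Counts were divided by an effective library size, the scaled count sum of the tested shared genes, which is not the library depth. TP73 then stood at 441 and 454 normalised counts in control cells, 313 and 358 in etoposide-treated cells and 174 and 177 in adriamycin-treated cells. The adriamycin libraries were the lowest. In RNA from whole cultures, fewer cells that express a gene and less of its RNA per cell cannot be told apart.

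With adriamycin, TP73 fell by 1.35 on the log2 scale against control (standard error 0.14, 95% interval −1.62 to −1.08), and the quasi-likelihood test of edgeR gave a Benjamini-Hochberg adjusted p of 1.97e-15 over the 94 genes. TP73 was thus the 1 member of 2 called in this comparison, where a call required both an adjusted p below 0.01 and a log2 fold change beyond 1 in size. By this rule 8.51% of the tested genes were called, 7.45% lower and 1.06% higher. TP73 had the eighth lowest log2 fold change. It was called under all 15 alternative settings, with log2 fold changes between −1.57 and −1.16. Of these settings, the looser adjusted p of 0.05 reused the main fit and could not lose the call. With only the 4 libraries compared, the edgeR adjusted p was 0.000809.

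With etoposide, TP73 was lower than in control cells by 0.42 on the log2 scale (standard error 0.12, 95% interval −0.66 to −0.18, edgeR adjusted p = 0.00373), which is under the fold threshold. Neither member was called in this comparison, where 5.32% of the tested genes were called, 2.13% higher and 3.19% lower. At any fold, 22.3% of genes passed an adjusted p under 0.01, with 5.32% higher and, like TP73, 17% lower. The direction held under all 16 alternatives, but the adjusted p was above 0.01 under 13 of them and reached 0.150 with upper-quartile scaling, where the change was −0.20, so the change with etoposide depended on the processing. The 2 drugs were compared directly. TP73 was lower in adriamycin-treated than in etoposide-treated cells by 0.93 on the log2 scale (standard error 0.14, 95% interval −1.20 to −0.65, edgeR adjusted p = 7.42e-09). This passed the adjusted p but not the fold threshold, in a comparison where 12.8% of genes were called, 2.13% higher and 10.6% lower. At any fold 45.7% of genes passed, 21.3% higher and 24.5% lower. The adjusted p stayed under 0.01 in all 15 alternatives, and the change passed 1 in 3 of them.

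NOC2L (ENSG00000188976) was more abundant. Untreated cells gave 5027 and 3400 counts of NOC2L, etoposide-treated cells 5246 and 3323, and adriamycin-treated cells 5228 and 3550. Its normalised counts were 4073 and 3900 in control cells, 3551 and 3496 in etoposide-treated cells and 5654 and 4959 in adriamycin-treated cells. By this scaling adriamycin was highest and etoposide lowest, and the place of etoposide below control depended on the scaling. NOC2L rose by 0.41 with adriamycin against control (log2 scale, standard error 0.087, 95% interval 0.24 to 0.59, edgeR adjusted p = 3.70e-05), and was higher by 0.59 than with etoposide (standard error 0.087, 95% interval 0.42 to 0.76, edgeR adjusted p = 4.37e-09). Both values are under the fold threshold. At an adjusted p under 0.01 at any fold, 38.3% of the tested genes differed between adriamycin and control, as many higher as lower (19.1% each). Against control, the adjusted p of NOC2L with adriamycin was above 0.01 under 4 of 15 alternatives. With scaling by the sum of the listed genes the change was 0.20 (edgeR adjusted p = 0.0421), and the adjusted p was 0.0199 without control replicate 2 and 0.0221 without etoposide replicate 1. Against etoposide the adjusted p was above 0.01 under 2 of 15 alternatives. The change was 0.18 with scaling by that sum (edgeR adjusted p = 0.0655), and the adjusted p was 0.0123 without etoposide replicate 1. With etoposide against control, NOC2L differed by −0.18 (standard error 0.087, 95% interval −0.35 to −0.0058, edgeR adjusted p = 0.107), and the sign turned under upper-quartile scaling and under scaling by the sum of the listed genes.

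**Figure D1:**
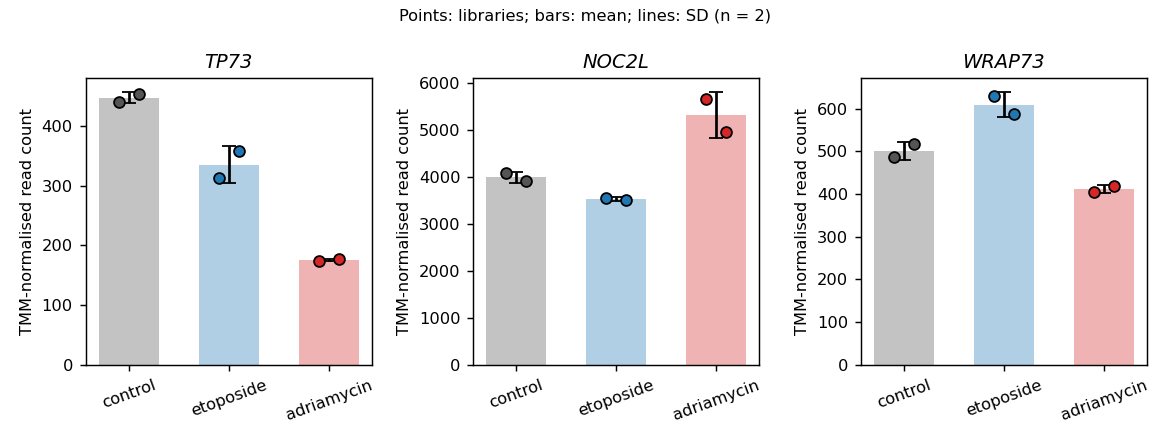
TMM-normalised read counts (linear axes from 0) of TP73, NOC2L and WRAP73, a gene beside TP73, in control, etoposide-treated and adriamycin-treated U2OS cells. Points are libraries, bars are means and lines are SDs (n = 2), and the adriamycin libraries of TP73, at 174 and 177, lie below all others while those of NOC2L, at 5654 and 4959, lie above all others.

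Because only 220 genes were shared, the scaling between libraries rested on few genes. Ratios of genes within a library need no scaling. Per 100 counts of NOC2L, TP73 had 10.8 and 11.6 counts without treatment, 8.83 and 10.2 after etoposide and 3.08 and 3.58 after adriamycin. The ratio was lowest with adriamycin, at 0.296 times that of control. No test was made, as an exact test of 2 against 2 libraries cannot pass 0.05. Against AGRN, SDF4 and SSU72, 3 other abundant genes of the shared region, the adriamycin libraries were also below all control and etoposide libraries, at 0.286, 0.274 and 0.381 times the control ratio. For etoposide, the ratio to NOC2L was 0.846 times that of control, the ratios to AGRN and SSU72 were 0.943 and 0.936 times, and the ratio to SDF4 was 0.727 times. The SSU72 ratios of the etoposide libraries, 21.9 and 27.8, overlapped those of control, 26.3 and 26.4. A ratio also carries the change of its denominator. Against control, AGRN was higher with adriamycin by 0.46 on the log2 scale (edgeR adjusted p = 1.04e-05). SDF4 was higher by 0.52 (edgeR adjusted p = 2.21e-07), and NOC2L by 0.41. With etoposide, AGRN stood at −0.33 (edgeR adjusted p = 0.00212) and SDF4 at 0.044. Of these denominators, SSU72 gave the smallest fall of TP73 with adriamycin.

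**Figure D2:**
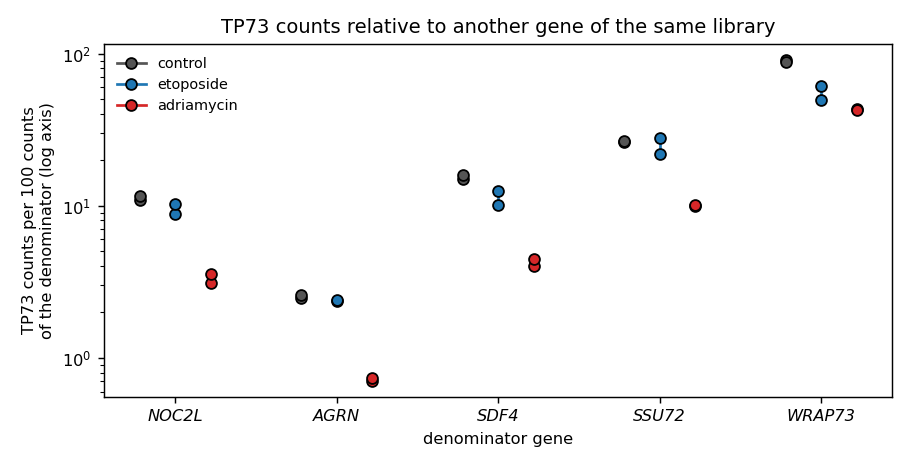
TP73 counts per 100 counts of each of 5 other genes in the same library (log axis), for control, etoposide and adriamycin libraries, with a line joining the 2 libraries of a group. The adriamycin libraries lie lowest for every denominator, from 0.71 and 0.74 against AGRN to 42.9 and 42.5 against WRAP73.

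Against control, the genes described around TP73 had smaller fitted changes with adriamycin than TP73, but between the drugs this did not hold. WRAP73, named for its position antisense to TP73, is transcribed away from it. In GENCODE its outermost start lies 245 bases inside TP73, while the RefSeq starts are 2413 bases apart, and no exon bases are shared. WRAP73 had 600 and 450 counts in control, 931 and 559 in etoposide and 375 and 299 in adriamycin libraries. Its log2 fold change was 0.29 with etoposide (standard error 0.11, edgeR adjusted p = 0.0320) and −0.28 with adriamycin (standard error 0.11, edgeR adjusted p = 0.0335). Neither passed 0.01, while WRAP73 was lower with adriamycin than with etoposide by 0.57 (standard error 0.11, edgeR adjusted p = 5.43e-06). The ratio of the pair was lowest with adriamycin. TP73 had 90.7 and 88.0 counts per 100 of WRAP73 in control, 49.7 and 60.8 with etoposide, and 42.9 and 42.5 with adriamycin, a denominator that was added after the data had been seen.

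Of 5 of the nearest genes that reached 10 counts in all libraries, 3 on the left and 2 on the right, 2 were lower and 0 higher with adriamycin at an edgeR adjusted p under 0.01, beside 19.1% of all tested genes in each direction. With so few neighbours these counts are a description. The 2 genes were TPRG1L, at −0.77 on the log2 scale (standard error 0.18), and LRRC47, at −0.36 (standard error 0.10). MEGF6 stood at −0.48 and DFFB, which encodes the nuclease that cuts DNA in apoptosis, at −0.78, with adjusted p of 0.321 and 0.0581. With etoposide, TPRG1L was the 1 of 5 past the threshold, higher by 0.56 (standard error 0.15, adjusted p = 0.00202). Between the drugs, 3 of the 5 were lower with adriamycin and 0 higher, beside 24.5% and 21.3% of all tested genes. TPRG1L had a log2 fold change of −1.33 (edgeR, standard error 0.17, adjusted p = 1.81e-11), a larger fitted change than that of TP73 at −0.93, and C1orf174, farther away, was at −1.0 (standard error 0.12). The differences between TP73 and its neighbours were not tested. The antisense RNA TP73-AS1 shares 633 exon bases with TP73, but it had 0 or 1 count in each library, and TP73-AS2 and TP73-AS3 had at most 4 and 2 counts. The strand setting of the counting is not given, so reads from the shared bases cannot be assigned to either strand.

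**Figure D3:**
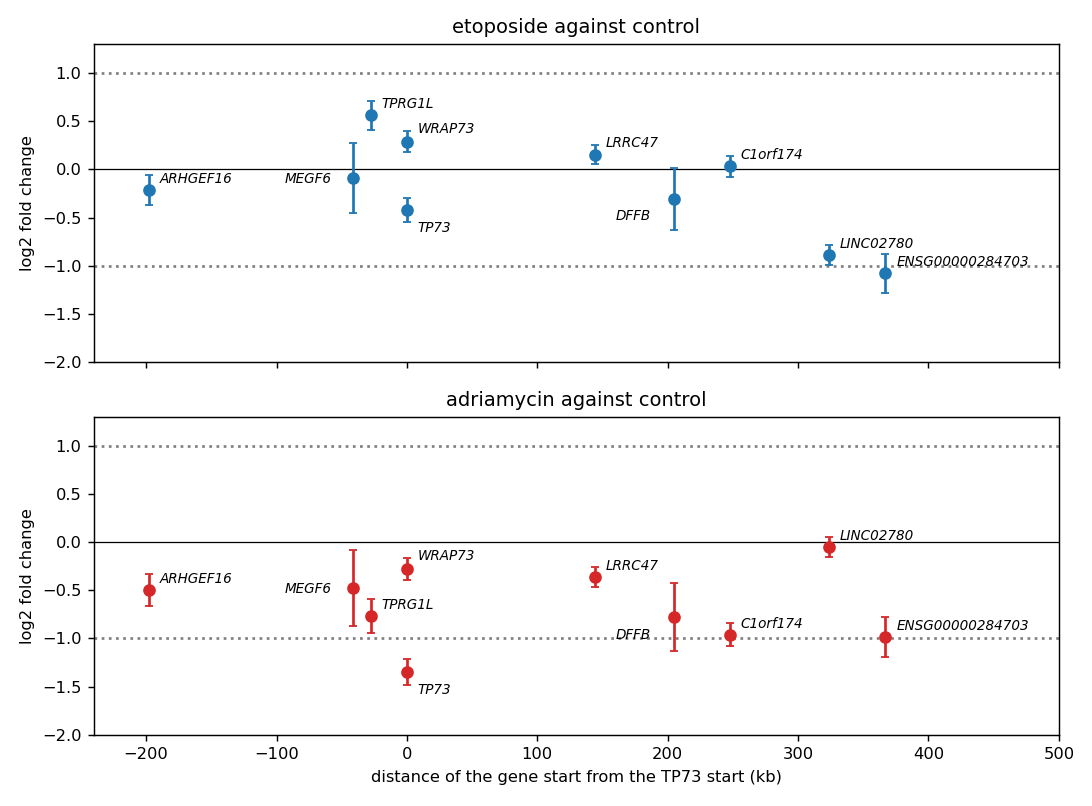
Log2 fold changes against control (y axis, lines are standard errors) of 10 genes that reached 10 counts in all libraries and start within 400 kb of TP73, by the distance of their start from that of TP73 (x axis, kb), for etoposide above and adriamycin below. Dotted lines mark 1 and −1, and with adriamycin TP73, at −1.35, is the lowest point.

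Of the 6 genes nearest to NOC2L, 2 were lower and 0 higher with adriamycin against control at an adjusted p under 0.01, beside 19.1% of all tested genes in each direction (SAMD11 by −0.71 and PLEKHN1 by −1.07 on the log2 scale, standard errors 0.11 and 0.34). With etoposide, 3 of the 6 were lower, beside 17% of all tested genes, SAMD11 by −0.58, KLHL17 by −0.66 and PLEKHN1 by −1.48 (standard errors 0.11, 0.098 and 0.33, edgeR). KLHL17 begins 1328 bases from NOC2L in RefSeq and is transcribed away from it. It had 1255 and 908 counts in control, 913 and 655 in etoposide and 871 and 671 in adriamycin libraries, and its log2 fold change with adriamycin was −0.13 (standard error 0.098, adjusted p = 0.274). Between the drugs KLHL17 was higher with adriamycin by 0.53 (standard error 0.10, edgeR adjusted p = 2.63e-06), the direction of NOC2L at 0.59, and 1 of the other 5 genes, LINC02593, was lower. SAMD11 shares 373 exon bases with NOC2L on the opposite strand, so counts from those bases are uncertain for both. The differences between NOC2L and its neighbours were not tested.

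Patterns across the 6 libraries were compared with those of the 93 other tested genes, as a description. The genes most like TP73 by Pearson's r of log2 normalised counts were SKI (0.98), a repressor of TGF-β signalling, ARHGEF16 (0.97) and UBE2J2 (0.96), and 9 genes were over 0.9. SKI had a log2 fold change of −1.67 with adriamycin. ARHGEF16 and UBE2J2 had log2 fold changes of −0.50 and −0.51 with adriamycin, smaller than that of TP73, so likeness here is of shape and not of size. The genes most like NOC2L were MTCO1P12 (0.99), a nuclear pseudogene of a mitochondrial gene, C1QTNF12 (0.98) and ENSG00000240731 (0.98), with 10 genes over 0.9. The 6 points share their libraries and scaling, and 3 groups alone set most of each pattern.

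In etoposide-treated cells the other family member, TP63, was at the limit of detection. TP63 (ENSG00000073282), at bases 189631389 to 189897276 on the plus strand of chromosome 3, had 2 counts in the first library. Its exact Poisson interval there was 0.242 to 7.22 counts. The other library had 0 counts, with an upper limit of 3.69 counts by the same interval. Taken as a fixed floor, 3 counts in that library are 0.211 CPM (counts scaled to library size). These limits cover counting error only. TP73 had 463 and 340 counts in the same libraries. Of the p53 paralogs examined, TP73 was therefore the one with a measurable level under etoposide, 11 and 12.4 TPM, and TP63 gave 0.043 and 0 TPM.

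MDM4, at bases 204516379 to 204558120 on the plus strand of chromosome 1, had 1073 and 789 counts, or 15.6 and 17.7 TPM. TP53BP1, at bases 43403061 to 43510728 on the minus strand of chromosome 15, had 1332 and 1037 counts, or 16.5 and 19.7 TPM. It shares 3732 exon bases with TUBGCP4 on the opposite strand, which had 1101 and 862 counts, so reads there are uncertain. USP7, at bases 8892097 to 8975328 on the minus strand of chromosome 16, had 4182 and 2668 counts, or 76.8 and 75.3 TPM. For all of these the gap between the libraries was small beside the range over the members.

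Ordered by level per length in etoposide-treated cells, NOC2L was highest at 149.9 ± 2.83 TPM (SD, n = 2), followed by USP7 at 76.0 ± 1.05, TP53BP1 at 18.1 ± 2.29, MDM4 at 16.7 ± 1.44, TP73 at 11.7 ± 0.999 and TP63. The values of TP53BP1 and MDM4 overlapped between libraries, while within the 2 libraries TP53BP1 was at 1.05 and 1.11 times MDM4. This small difference was not tested. The other neighbours in this order did not overlap, with NOC2L at 1.98 and 1.96 times USP7 and MDM4 at 1.42 and 1.43 times TP73 in the 2 libraries. Among 13715 protein-coding genes with at least 10 counts in both libraries, NOC2L lay at percentile 93.3, USP7 at 85.4, TP53BP1 at 52.1, MDM4 at 50.2 and TP73 at 41.9, where the median gene stood at 16.5 TPM. Thus the acetyltransferase inhibitor and the deubiquitinase were among the more abundant transcripts. The p53 antagonist MDM4 and the break reader TP53BP1 were near the median of these 13715 genes, which leave out coding genes with fewer counts.

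**Figure D4:**
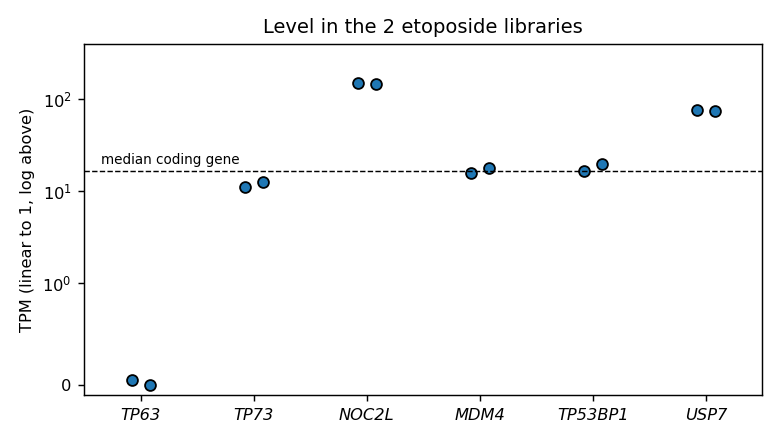
Levels of the 6 members in the 2 etoposide libraries in TPM (axis linear up to 1 and logarithmic above). Each point is a library. The dashed line is the median, 16.5 TPM, of protein-coding genes with at least 10 counts in both libraries. NOC2L (152 and 148) and USP7 (76.8 and 75.3) lie well above it, MDM4 and TP53BP1 beside it and TP63 (0.043 and 0) at the bottom.

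The log2 ratio between the etoposide libraries was 0.15 for TP73 and MDM4, −0.068 for NOC2L, −0.058 for USP7 and 0.23 for TP53BP1 in CPM, beside an SD of 0.28 over all 13715 genes. The gap of TP53BP1 was reached by 27.7% of genes. This gap moved with transcript length across genes. In 4 equal classes of genes from the shortest to the longest transcript, the median log2 ratio was −0.086, −0.0053, 0.049 and 0.13. Over single genes, which do not replicate one another, Spearman's rho with length was 0.36 and Pearson's r with log2 length 0.26. The longest transcript of TP53BP1 has 10369 bases and that of MDM4 10050 bases. The part of length in these gaps was not tested.

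The other genes of the pathway were taken from 5 lists, and their levels in etoposide-treated cells are given without a test. Besides NOC2L and WRAP73, 0 of the listed genes were among those of all 6 libraries, so no change with either drug could be given for them. In the list of MDM4 and ubiquitin ligases, 19 of 19 genes had at least 10 counts in both libraries, with a median of 17.6 TPM. TRIM28, a corepressor and p53 ligase partner, was highest at 610 ± 0.066 TPM, followed by the chaperone-linked ligase STUB1 at 122 ± 10.5 and FBXO45, a ligase subunit for p73, at 75.2 ± 2.27. NEDD4L (2.92 ± 0.30 TPM) and HECW2 (0.30 ± 0.020 TPM) were lowest. MDM4 lay close to the list's median. The p73 ligase ITCH stood at 13.1 ± 0.67 TPM, close to TP73 itself.

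In the list of USP7 and other deubiquitinases, 12 of 13 genes had at least 10 counts in both libraries, with a median of 37.0 TPM. USP7 was the second highest, beside OTUB1 at 78.7 ± 2.07 TPM and OTUD5 at 70.3 ± 2.25 TPM, and their ranges were close. USP10, a cytoplasmic p53 deubiquitinase, stood at 56.0 ± 0.12 TPM. USP2 (12 and 16 counts) and USP29 (1 and 0 counts) were lowest.

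In the list of TP53BP1 and factors of the break response, 22 of 22 genes had at least 10 counts in both libraries, with a median of 19.1 TPM. The histone H2AX, whose phosphorylated form marks breaks, was highest at 1005 ± 26.5 TPM, followed by the kinase PRKDC at 79.0 ± 8.98 and NUDT16L1, which binds TP53BP1, at 75.4 ± 2.93. The kinases ATM and ATR stood at 7.14 ± 0.78 and 7.97 ± 0.42 TPM. RIF1, which is recruited by TP53BP1, stood at 19.1 ± 1.04 TPM, near TP53BP1. RAD50 (1.88 ± 0.022) and L3MBTL1 (1.32 ± 0.31) were lowest. Overlap with other annotated genes was examined for the members only, so reads lost to overlap were not assessed for these genes.

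In the list of NOC2L, acetylation enzymes and nucleolar partners, 20 of 20 genes had at least 10 counts in both libraries, with a median of 79.5 TPM. Of these, 18 were above the median of protein-coding genes that reached the same count. RPL5 at 738 ± 30.0 TPM, NPM1 at 716 ± 47.1 and RPL11 at 670 ± 40.9 were highest, and RPL5 and RPL11 encode ribosomal proteins that restrain a p53 ligase when ribosome assembly fails. Reads of these 3 genes may be shared with their processed pseudogenes, so their levels are uncertain. The ribosome assembly factor NOC4L stood at 149 ± 4.85 TPM, as high as NOC2L, and NOC3L at 50.7 ± 0.95. The acetyltransferases EP300 (17.2 ± 4.00), KAT5 (12.2 ± 2.07) and KAT2B (8.22 ± 0.22) were the lowest of the list, with NOC2L at several times their level.

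In the list of cofactors and kinases, 25 of 25 genes had at least 10 counts in both libraries, with a median of 32.7 TPM. HNRNPK, a p53 cofactor, was highest at 494 ± 2.07 TPM, followed by E2F1 at 301 ± 9.0, a known activator of TP73, and DAXX at 108 ± 1.70. PPP1R13L, the inhibitory member of the ASPP family, stood at 95.3 ± 3.43 TPM, above its activating relatives TP53BP2 at 28.7 ± 4.28 and PPP1R13B at 4.00 ± 0.42. JMY (3.16 ± 0.48) and CABLES1 (0.44 ± 0.29) were lowest.

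**Figure D5:**
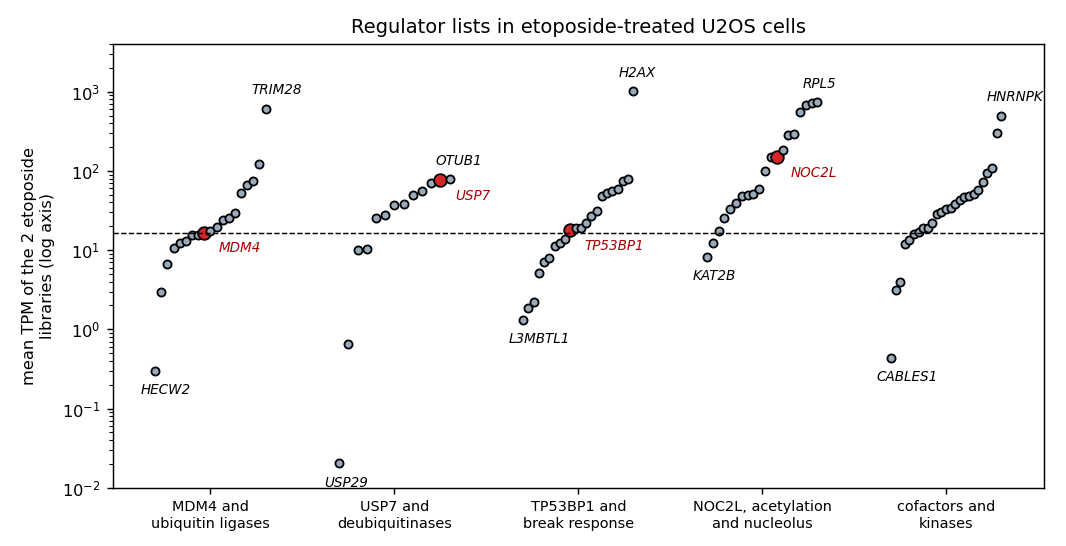
Mean TPM (log axis) in the 2 etoposide libraries of the genes of 5 lists of p53 family regulators, each sorted from low to high, with members in red and the highest and lowest gene of each list named. The dashed line is the median (16.5 TPM) of protein-coding genes with at least 10 counts in both libraries. MDM4 (16.7) and TP53BP1 (18.1) lie close to it while USP7 (76.0) and NOC2L (149.9) lie above it.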

How the data were processed

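The authors purified poly-A mRNA, aligned 150-base paired-end reads to GRCh38 with HISAT2 2.1.0, counted them per Ensembl gene with featureCounts of Subread 2.0.0 and deposited raw counts, 1 value per gene and library, without normalization. The strand and multi-mapping options are not given in the sources used here. Lines for 292 and 280 genes (control), 220 and 221 genes (adriamycin) and 67140 genes (etoposide) were used, and the incomplete last line of the control and adriamycin data was left out. Groups and replicate numbers came from the sample labels.

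Counts of the 220 shared genes entered the quasi-likelihood test of edgeR 4.0.16 under R 4.3.3, as 1 fit of the 6 libraries, with TMM scaling, the default filter on low counts (94 genes tested), no block and Benjamini-Hochberg adjustment. The biological coefficient of variation was 7.51%. Normalised counts are counts over effective library size, scaled to its geometric mean. Intervals are 95% intervals of the fitted change. In 10 simulated sets of the 94 genes for adriamycin against control, some genes were changed by 2 on the log2 scale. Their counts were drawn from the means, spread and scaling of the fit itself. Of 199 changed genes tested, 188 were called in the right direction (94.5%), and 0 of 730 unchanged genes were called. Smaller changes, such as those fitted for TP73 and NOC2L, were not simulated. As the sets follow the fitted model, they cannot say whether its spread or scaling is right for these libraries. Symbols, coordinates and exon lengths are from GENCODE release 44, which named 60357 of the 67140 identifiers. TPM used the summed length of all annotated exons. Tables were made with Python 3.11.15, pandas 2.3.3, numpy 2.4.6 and scipy 1.17.1.

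The alternatives were DESeq2's size factors, upper-quartile scaling, the sum of the listed genes alone, the DESeq2 1.42.0 Wald test, other filters, only the libraries compared, a block for the replicate number, a looser adjusted p of 0.05, all 280 genes of the control and etoposide data, leaving out each library, and other lengths. The looser adjusted p was read from the main fit and is counted among the alternatives. Named genes were the 6 members, antisense RNAs of TP73 and WRAP73, the 3 nearest genes on each side, genes with overlapping exons, the 3 most alike genes, and the 3 highest and 2 lowest genes of each list. Other listed genes and the genes of the 400 kb window were named after their values were seen. 1 gene near TP73 is not reported here. The members and lists were chosen with earlier results of these data known.

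Replicates were not copies of each other: among 75 genes that reached 10 counts throughout, an exact binomial test (p under 0.05) told the 2 libraries of a group apart for 24% in control, 34.7% in etoposide and 21.3% in adriamycin.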

Additional observations from a re-analysis of the deposited data

How the results depend on the processing

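TP73 with adriamycin against control kept its call under all 15 alternatives, and TP73 with adriamycin against etoposide kept its adjusted p under 0.01 in all 15, with a change over 1 in 3 (−1.34 with the sum of the listed genes, −1.03 with only the 4 libraries compared and −1.0 without etoposide replicate 1). TP73 with etoposide against control missed an adjusted p of 0.01 at −0.40 with DESeq2's size factors and without a filter, −0.20 with upper-quartile scaling, −0.23 with the sum of the listed genes, −0.37 with the DESeq2 Wald test, −0.45 with only the 4 libraries and −0.39 over all 280 genes, and at −0.54 to −0.33 when 1 library was left out. NOC2L with etoposide against control was 0.045 with upper-quartile scaling and 0.018 with the sum of the listed genes, under which the median over the 94 genes moved from 0.027 to 0.25 and 0.22. NOC2L with adriamycin missed 0.01 against control at 0.20 with the sum of the listed genes and 0.44 with only the 4 libraries, and ranged from 0.38 to 0.52 with 1 library left out. Against etoposide it missed 0.01 at 0.18 with the sum of the listed genes and ranged from 0.53 to 0.70 with 1 library left out. The cause of these changes was not tested.

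Of the 94 tested genes, 2 were called higher and 3 lower with etoposide, 1 and 7 with adriamycin, and 2 and 10 with adriamycin against etoposide. With etoposide the higher count was 1 under a minimum of 10 counts throughout, and leaving out 1 library gave 0 to 2 higher and 0 to 3 lower. With adriamycin the higher count was 2 with DESeq2's size factors or Wald test, 4 with upper-quartile scaling, 0 with the sum of the listed genes or only the 4 libraries, and 0 to 2 with 1 library left out. Against etoposide the higher count was 1 with upper-quartile scaling, the sum of the listed genes, no filter, at least 10 counts or only the 4 libraries, and the lower count was 21 with the sum of the listed genes and 5 with at least 10 counts. Leaving out 1 library gave 1 to 3 higher and 2 to 10 lower. TP73 was among the genes called lower with adriamycin against control in each of these fits.

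On the log2 scale, the TP73 to NOC2L ratio changed by −0.24 with etoposide, −1.76 with adriamycin and −1.52 between the drugs. For etoposide it was −0.084 against AGRN, −0.46 against SDF4, −0.095 against SSU72 and −0.70 against WRAP73. With adriamycin it was −1.39 against SSU72 and −1.06 against WRAP73, and between the drugs −1.72 against AGRN, −1.30 against SSU72 and −0.37 against WRAP73. With the longest transcript as length, the percentiles in etoposide-treated cells were 40.2 for TP73, 92.8 for NOC2L, 44.4 for MDM4, 49.5 for TP53BP1 and 86.2 for USP7, and without length they were 45.3, 95.1, 67.9, 74.6 and 93.4.

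The sample labels do not say whether libraries of the same replicate number were paired. Deviations of same-numbered libraries correlated at −0.070, 0.036 and −0.010 over 75 genes, which cannot settle how they were prepared. With the replicate number as a block, TP73 stood at −0.42 with etoposide, −1.35 with adriamycin and −0.93 between the drugs, NOC2L at −0.18, 0.41 and 0.59, and the side of each threshold was kept. The short shared list limits the scaling between groups, and the 4 members seen with etoposide alone have no comparison.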
